A study of Mus musculus with 18 samples.

Results

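Harringtonine footprints were kept only in untreated cells at 600 of 9025 single-base positions in mouse erythroblasts, in 504 of 4613 genes with a position. A position was taken when it held at least 20 reads summed over the 3 untreated libraries and fewer than 20 summed over the 3 tunicamycin libraries. Another 1597 positions passed 20 reads only under tunicamycin and 6828 passed in both treatments. These counts chose the positions, so their difference between treatments is described here and not tested.

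Harringtonine holds ribosomes that have just joined at a start codon while ribosomes already elongating run off the mRNA. Footprint peaks are used for this reason to find places where translation begins. Whether each position described here is such a place was not tested. Tunicamycin stops N-linked sugars from being added to proteins made at the endoplasmic reticulum (ER), and the series used it to bring about phosphorylation of eIF2, the factor that delivers the initiator tRNA. Phosphorylated eIF2 lowers most initiation, and it raises translation of some mRNAs whose leaders carry upstream open reading frames. Red-cell precursors make large amounts of globin and are known for tight control of eIF2.

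The cells were erythroblasts from fetal livers of Trp53 -/- mice on an FVB/n x C57BL/6 background, and all groups carried this deletion. They grew in StemPro with erythropoietin, stem cell factor and dexamethasone. Cells were left untreated or given tunicamycin at 2.5 ug/ml for 1.5 h. Each treatment had 3 libraries of total RNA, 3 of footprints after cycloheximide (100 ug/ml for 5 min, which freezes ribosomes in place) and 3 of footprints after harringtonine (2 ug/ml), 18 samples in 6 groups. RNA libraries held 12883350 to 48992797 counted reads and cycloheximide libraries 4531945 to 6652042 coding-sequence (CDS) footprints. All 11 erythroblast markers were at 5 CPM (reads scaled to the library total) or more in RNA, with summed levels of 6610 to 6913 CPM untreated and 6685 to 6925 CPM under tunicamycin. No marker of the macrophage, neutrophil, hepatocyte or endothelial lists reached 5 CPM. Of the 8 megakaryocyte markers only Gp5 did (100.5 CPM), and of the 7 mast cell markers only Ms4a2 (139 CPM). Kit was the only marker gene with a position kept only in untreated cells, and it held 4.

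The harringtonine libraries are called u1, u2 and u3 (untreated) and t1, t2 and t3 (tunicamycin) after their numbers in the files. Their kept positions summed to 523868, 446561 and 481525 reads untreated and 648169, 558625 and 590788 under tunicamycin, so a threshold on raw sums is harder to pass in untreated cells. Scaled reads below are reads brought to the mean of these 6 totals. 2 libraries stood apart in the bodies of genes. At the 857 positions that were kept in both treatments, lay beyond the midpoint of the annotated gene and held up to 200 untreated reads, t1 was the lowest of the 6 libraries at 369. Its median there was 0.716 of the position's mean over the 6 libraries. At the same positions u2 was highest at 260, with a median of 1.09. At the 3181 such positions in the first 5% of the gene the medians of all 6 libraries lay between 0.927 and 1.01. The part of this in the results below was not tested. Values without t1 and without u2 are given for the number of positions and for the share beyond the midpoint.

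Positions were read here as the 5′ ends of footprints. No source used here states this, and it was taken from the offsets at which ATG was most frequent. 44 of the 600 positions lay in the RefSeq (GRCm38.p6) windows of 250 bases before to 50 after a gene's start. For 36 of them the codons at offsets 12 and 13 could be read from the sense strand, counting the position itself as offset 0. Across all positions in these windows ATG stood at offset 13 at 14.0% and at offset 12 at 10.4%, the highest shares of any offset examined, and offsets 12 and 13 were chosen for this reason. An ATG at offset 12 or 13 was found at 6 of the 36 positions kept only in untreated cells (16.7%). The share was 24.7% over all 756 readable positions and 2.52% over all bases of all windows. A CTG, a near-cognate start codon, was found at 9 of 36 (25%), against 16.1% of all positions and 4.90% of all bases. TTG stood at 1 of 36 (Ankle1) and GTG at 0 of 36, against 2.38% and 6.22% of all positions and 2.91% and 3.42% of all bases. A match is a description of the letters and does not show that a ribosome starts there.

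The 3 lines that follow show an ATG (capitals) at offset 12 or 13, and the next 3 a CTG, each read 5′ to 3′ on the gene's strand from the position onward. Rps7 encodes a protein of the small ribosomal subunit and lies on the reverse strand at chr12:28635904-28635919. Yars, tyrosyl-tRNA synthetase, lies on the forward strand at chr4:129189895-129189924, and Osbpl8, a lipid-binding protein, on the forward strand at chr10:111164811-111164840. Mtr, methionine synthase, lies on the reverse strand at chr13:12258068-12258097, Supt16, a histone chaperone of the FACT complex, on the reverse strand at chr14:52197376-52197405, and Prmt7, an arginine methyltransferase, on the forward strand at chr8:106211076-106211103. The bases are genomic and not spliced. Counted from the transcript start of the window used, the Supt16 position lay at -166 and the Yars position at -8, before that start. Ifrd1, an mRNA with a known upstream open reading frame, is shown last because its gene is one of the few whose other measurements passed a test (reverse strand, chr12:40223140-40223161), and it has no ATG at offset 12 or 13.
Rps7: cgccacccggatATGa
Yars: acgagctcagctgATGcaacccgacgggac
Osbpl8: gtgtcagggcggATGacagcattctgctgc
Mtr: ctgcggccttgctCTGtagcggggagctct
Supt16: gctgcacctcggtCTGttgacttcactttt
Prmt7: acagcgggtgagCTGttgggcttgctgg
Ifrd1: aacatgtatcgtttccgctcgc

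At the Rps7 position the counts were 5, 10 and 12 untreated and 0, 8 and 10 under tunicamycin, so u1 fell below t2 and t3. The Yars position had 7, 9 and 7 untreated and 5, 5 and 4 under tunicamycin, without overlap, and the Osbpl8 position 6, 10 and 5 against 4, 6 and 9, with overlap. The Yars position lay 1 nt from a position kept only under tunicamycin, with 3, 7 and 7 untreated reads and 6, 6 and 11 under tunicamycin. In all, 35 of the 600 positions had a tunicamycin-only position within 3 nt on the same strand. An ATG at offset 1 stood at 5 of 43 positions (11.6%), against 4.01% of all positions.

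Most of the 600 positions lay close to the threshold. Their untreated sums ran from 20 to 97 reads with a median of 23 (quartiles 21 and 26), and their tunicamycin sums from 0 to 19 with a median of 15. An untreated sum of exactly 20 was held by 132, a tunicamycin sum of 19 by 69, and 101 had 20 to 22 untreated and 17 to 19 tunicamycin reads. The rule kept 392 positions without u1, 397 without u2 and 471 without u3, and 848, 770 and 804 without t1, t2 and t3. Just outside stood 196 positions with at least 20 untreated reads and 20 or 21 under tunicamycin, led by Ybx1 (58 against 21), Ing4 (52 against 21) and Nup155 (49 against 21). Only 54 had more than 30 untreated reads, 8 had more than 40 and 16 had 5 or fewer tunicamycin reads. In scaled reads the median of the library means was 8.47 untreated and 4.57 under tunicamycin.

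**Figure D1:**
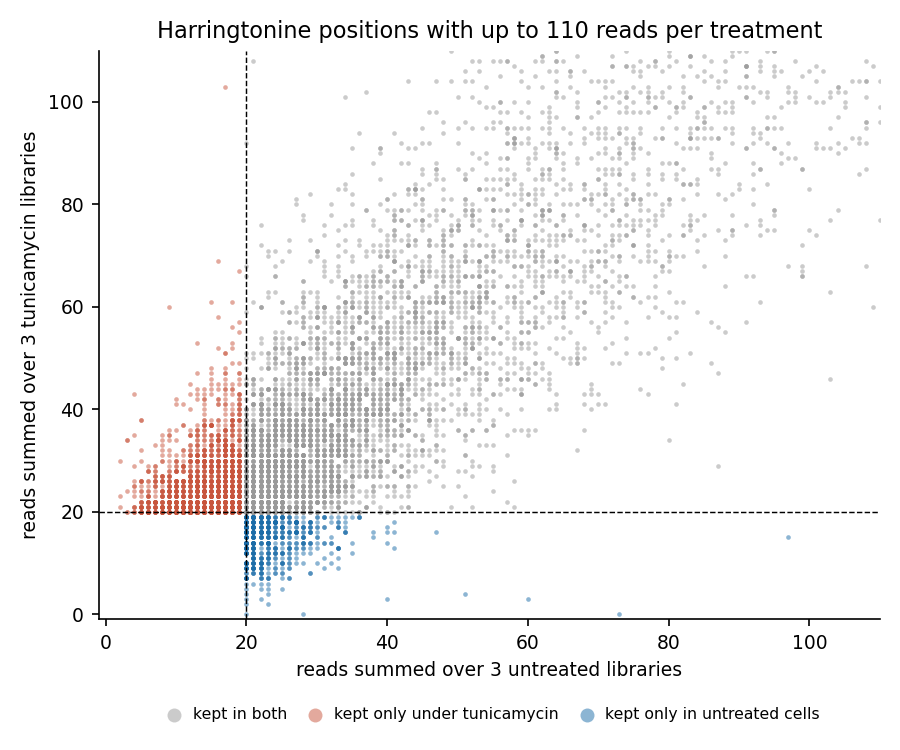
Each point is a harringtonine position, plotted by its reads summed over the 3 untreated libraries (x axis) and over the 3 tunicamycin libraries (y axis), up to 110 reads on each axis; dashed lines mark 20 reads. The 600 positions kept only in untreated cells (blue) crowd against both lines, with 132 at an untreated sum of exactly 20.

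All 600 were higher in untreated cells in the scaled mean. Among the 591 with more than 3 tunicamycin reads, the log2 ratio of untreated to tunicamycin scaled means, after 0.5 reads were added to each library, had a median of 0.93 and ran from 0.34 to 3.55. It was at least 1 in 254 and under 0.5 in 45. Every untreated library exceeded every tunicamycin library at 169 of the 600 (28.2%), and the same held at 5.06% of all 9025 positions. The rule used this contrast, so the share is a description.

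The reads of many positions came from 1 library. At 222 of 600 (37.0%) a single untreated library held more than 50% of the untreated reads, against 26.1% of the 1232 positions kept in both treatments with untreated sums of 20 to 26. The highest untreated count, before scaling, was in u1 at 256 positions, in u2 at 227 and in u3 at 117. Over all 9025 positions it was in u1 at 4289, in u2 at 2244 and in u3 at 2492. Summed over the 600 positions, scaled reads were 5019, 6325 and 4992 untreated and 2111, 2966 and 2723 under tunicamycin. The count was 0 at 56 positions in t1, 13 in t2 and 15 in t3, against 8, 7 and 1 in u1, u2 and u3.

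Genes with almost no RNA in these cells were among those with the highest untreated sums. Pde5a, a cGMP phosphodiesterase, had 4, 3 and 90 untreated reads against 3, 2 and 10 under tunicamycin. Lmod1, an actin nucleator of smooth muscle, had 0, 5 and 46 against 0, 1 and 3. In both genes the height came from u3 alone. Appl2, an endosomal adaptor, had 0, 35 and 5 against 1, 0 and 2, here from u2. Mean RNA was 0.0034 CPM for Pde5a and 0.107 CPM for Appl2, and no RNA read of Lmod1 was counted. Host genes under 1 CPM of RNA held 11 of the 593 positions whose gene was in the count table, among them Crb1 (0, 0 and 28 untreated, none under tunicamycin) and Cp, caeruloplasmin (1, 0 and 22 against 0, 1 and 1). The share, 1.85%, was 1.85% over all positions too. Over 75% of the untreated reads came from 1 library at 15 positions, 9 of them in u3, 4 in u2 and 2 in u1.

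Trim24, a transcriptional cofactor, led the positions in expressed genes with 1, 11 and 48 untreated reads against 1, 0 and 2, and 80.0% of its untreated reads came from u3. Its RNA was 75.95 CPM untreated and 84.2 CPM under tunicamycin. Nup205, a scaffold protein of the nuclear pore, had 10, 23 and 14 untreated and 2, 9 and 5 tunicamycin reads, or 17.99 ± 8.99 scaled reads untreated (mean ± SD, n = 3) against a mean of 4.99. All untreated libraries lay above all tunicamycin ones there. C1qbp, a mitochondrial matrix protein, had 19, 16 and 6 against 6, 6 and 6, also without overlap after scaling. Its position lay 4466 nt downstream of the gene's main position, which held 410 untreated and 501 tunicamycin reads. Ier5, an immediate early gene, had 19, 7 and 14 against 8, 7 and 1 at a position 52 nt upstream of its main one. The main position itself had 34, 14 and 24 untreated and 14, 23 and 12 tunicamycin reads, and u2 fell inside the tunicamycin range.

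Nup133, another nuclear pore protein, had 2, 30 and 9 against 1, 8 and 4, so u1 and t2 overlapped. Dhx8, an RNA helicase of the spliceosome, had 8, 21 and 9 against 0, 9 and 6, and the Golgi protein Glg1 had 3, 24 and 11 against 0, 9 and 7. In these 3 genes u2 was the highest library and t1 the lowest. Scaf4, an RNA polymerase II binding factor, had 10, 15 and 7 against 2, 4 and 4, without overlap. Gm13826, a predicted gene that the count table does not hold, had 9, 12 and 12 against 1, 4 and 4, without overlap.

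**Figure D2:**
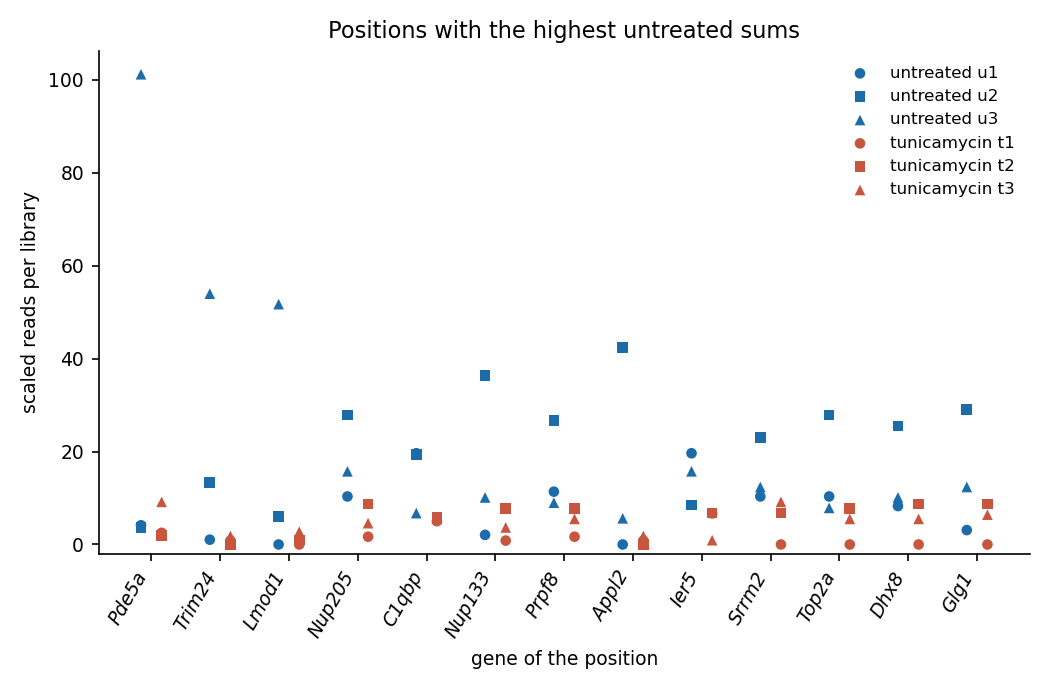
Scaled reads per library (y axis, reads brought to the mean library total) at positions among the 15 with the highest untreated sum, named by gene on the x axis; blue marks are untreated and red marks tunicamycin libraries, with a shape per library number. In Pde5a, Trim24 and Lmod1 only u3 stands high, and from Nup133 to Glg1 the square of u2 is often the highest mark.

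The place of these positions within their genes differed from that of other positions. Of 594 that fell inside the annotated gene span, 33.8% lay in its first 5%, 25.8% between 5% and the midpoint and 240 (40.4%) beyond the midpoint. Beyond the midpoint lay 14.3% of positions kept in both treatments with untreated sums of 20 to 26, 16.05% of those kept only under tunicamycin and 16.04% of all. Spans are genomic and include introns, and exons, introns and UTRs were not placed here. With sums scaled to the library totals the rule kept 909 positions, all 600 among them, and 34.5% lay beyond the midpoint, against 14.97% of the 873 kept only under tunicamycin by the same scaled rule. These shares were not tested, since summed counts set the classes and positions are not replicates of a treatment.

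**Figure D3:**
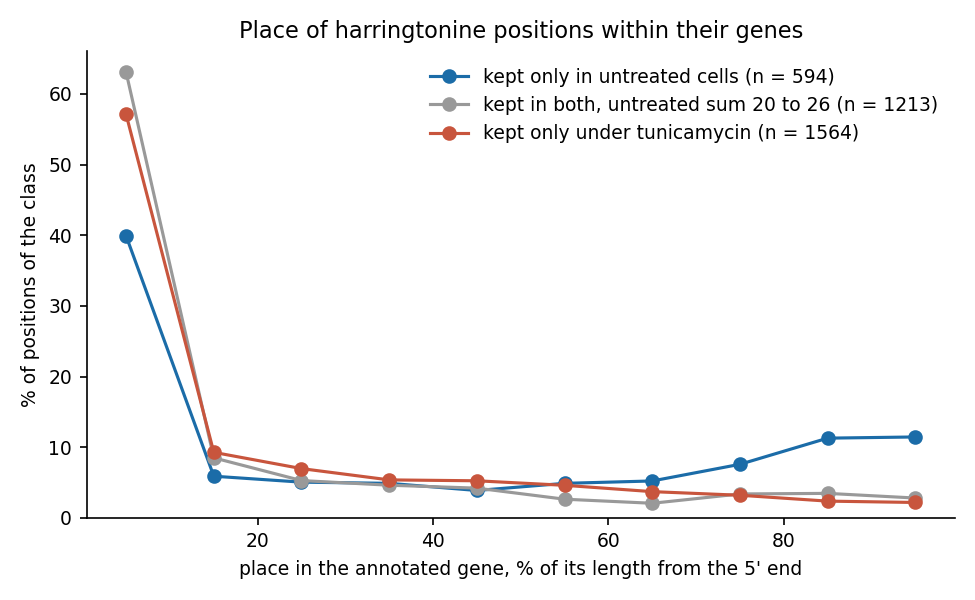
Share of positions (y axis, % of each class) in successive stretches of 10% of the annotated gene from its 5′ end (x axis). Positions kept only in untreated cells (blue, n = 594) have fewer near the 5′ end and more near the 3′ end than weak positions kept in both treatments (grey, n = 1213) or kept only under tunicamycin (red, n = 1564).

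The 2 libraries named above bore on this share. Without t1, and with the other sums scaled up to 3 libraries, 25.7% of the kept positions lay beyond the midpoint. Without u2 the share was 32.5%, and with any other library left out it ran from 39.7% to 48.6%. At the 240 positions beyond the midpoint, scaled reads summed to 1719, 3237 and 1987 untreated and 544, 1239 and 1188 under tunicamycin, and u2 was the highest of the 6 libraries at 153 of them while t1 was the lowest at 153. At the 354 positions up to the midpoint the sums were 3243, 3049 and 2945 untreated and 1542, 1692 and 1514 under tunicamycin, with little difference among libraries of a treatment. The median log2 ratio was 1.15 beyond the midpoint and 0.85 before it. All untreated libraries lay above all tunicamycin libraries at 64 of 240 and 104 of 354. The 933 positions kept in both treatments beyond the midpoint held 7.17%, 7.62% and 6.90% of untreated reads and 6.93%, 7.16% and 8.51% of tunicamycin reads, so the treatments overlapped there.

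**Figure D4:**
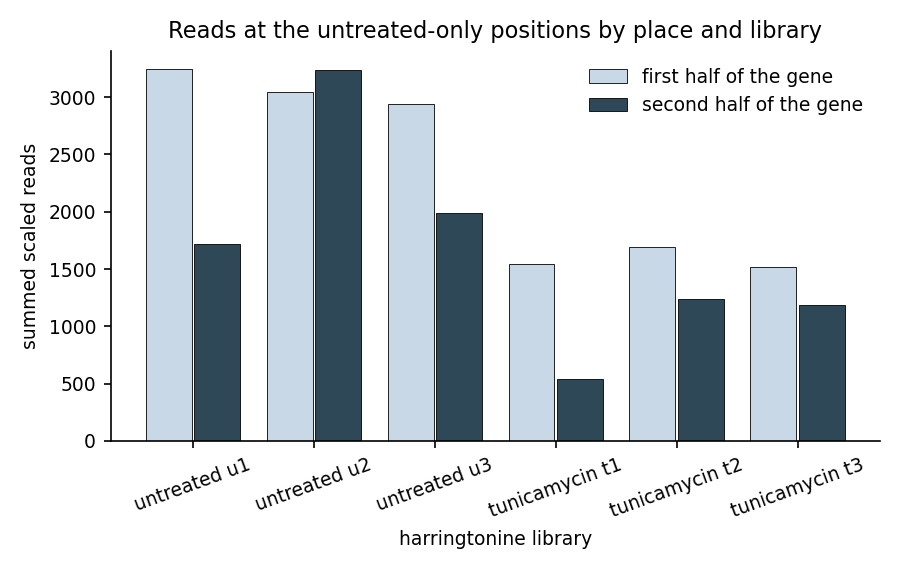
Scaled reads summed over the positions kept only in untreated cells (y axis) in each harringtonine library (x axis), for positions up to the midpoint of the gene (light bars) and beyond it (dark bars). The light bars are level within each treatment, while the dark bars run from 1719 in u1 to 3237 in u2 and from 544 in t1 to 1239 in t2.

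Relative to the gene's main position, the one with the most reads over all 6 libraries, 284 lay downstream, 151 upstream, 28 were the main position and 137 were the only position of their gene. With the main position chosen on untreated reads alone, 251 lay downstream. The median genomic distance downstream was 3584 nt, against 89.5 nt for weak positions kept in both treatments and 129.5 nt for those kept only under tunicamycin. More than 1000 nt downstream lay 183 of the 600 (30.5%), against 12.1% and 14.7% in those classes. At these 183, scaled reads summed to 1434, 2295 and 1318 untreated and 492, 915 and 902 under tunicamycin. Here t1 had the lowest sum, and u2 held the highest untreated count at 99 positions. The distances were not computed without t1 or u2. Fewer of the 600 stood beside another position. Within 10 nt 107 (17.8%) had one, against 23.7% of weak positions kept in both and 29.8% of all. Within 3 nt 88 had one.

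Where a neighbour within 10 nt was kept in both treatments (54 positions, 31 of them 1 nt away), the median log2 ratio was 1.08 at the position itself and 0.48 for the pair summed. When positions within 10 nt were merged before the rule was applied, 493 of 7663 sites were kept only in untreated cells. At the main positions of the same genes the treatments were close in the median, while single genes differed. Of 339 host genes whose main position was another one, 306 had it kept in both treatments, and the median log2 ratio of the main positions was close to 0. Main positions held 103 untreated and 46 tunicamycin reads in Dnmt1, 67 and 32 in Ahctf1, 146 and 71 in Cltc and 144 and 96 in Smarca4. In AI314180 they were 79 and 125 and in Nr2c2ap 56 and 96, the other way.

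In most genes 1 position was concerned: 446 genes held 1, 35 held 2 and 23 held 3 or more. Positions of 1 gene share their mRNA and are not independent. Top2a, the topoisomerase that untangles DNA in dividing cells, held 7 of its 16 positions in this class, all between 20434 and 30278 nt downstream of the main one. The 7 summed to 42.4, 131 and 66.4 scaled reads untreated and 10.03, 34.9 and 52.3 under tunicamycin, so u1 fell below t3. The highest of them, at chr11:98993828 on the reverse strand, had 10, 23 and 7 against 0, 8 and 6 reads. The main position of Top2a held 161 untreated and 197 tunicamycin reads.

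Kit, the stem cell factor receptor on which these cultures depend, held 4 of 7, at 70912 to 79468 nt downstream. They summed to 24.8, 61.9 and 22.5 scaled reads untreated and 5.85, 11.6 and 17.4 under tunicamycin, with no overlap between treatments. The position at chr5:75645972 (forward strand) had 7, 9 and 10 against 3, 0 and 4 reads and the one at chr5:75648401 had 12, 12 and 5 against 3, 4 and 7. Of these 2, only the first kept every untreated library above every tunicamycin library.

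Prpf8, the scaffold of the spliceosome's catalytic core, held 4 of 18, with sums of 41.4, 55.8 and 38.2 untreated and 5.85, 23.3 and 22 under tunicamycin. Its strongest, at chr11:75495418 (forward strand), had 11, 22 and 8 against 2, 8 and 6 reads, while its main position had 232 untreated and 357 tunicamycin reads. Srrm2, a serine and arginine rich splicing protein, held 4 of 10, and its main position was one of them with 10, 19 and 11 against 0, 7 and 10. The 4 summed to 43.4, 77.6 and 33.7 untreated and 1.67, 24.2 and 22 under tunicamycin. Treatments did not overlap in either gene, and t1 was the lowest library in both.

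Dnmt1, the maintenance DNA methyltransferase, held 5 of 7, all upstream of a main position that itself lies near the gene's 3′ end. Their sums were 19.6, 80.0 and 27.0 untreated and 5.01, 34.9 and 37.6 under tunicamycin. Here u1 and u3 fell below t2 and t3, and only u2 and t1 differed in the direction of the class. Smarca4, the BRG1 ATPase of chromatin remodelling, held 4 of 13, and its sums were 23.8, 57.0 and 22.5 against 1.67, 26.2 and 22.9, again with u1 and u3 beside t2 and t3. Ahctf1, the nuclear pore assembly factor ELYS, held 5 of 8 with 29.98, 69.1 and 46.1 against 5.85, 30.1 and 22.9.

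Cct5, a subunit of the TRiC chaperonin, held 5 of 11, and the pattern over libraries was another one: 55.8, 34.0 and 30.4 untreated against 15.9, 15.5 and 28.4 under tunicamycin. All untreated values were higher and u1, not u2, was the highest. The 14 genes with exactly 3 were AI314180, Atp5a1, Cad, Chd8, Cltc, Eef1b2, Hsp90aa1, Nr2c2ap, Pabpc1, Pabpc4, Sptb, Supt16, Uggt1 and Usp9x. Their sums overlapped between treatments in 9 of the 14, and in Cltc, the clathrin heavy chain, they were 11.4, 64.3 and 13.5 untreated against 0.836, 22.3 and 21.1. The 5 without overlap were Atp5a1, Nr2c2ap, Pabpc4, Sptb and Uggt1. In Pabpc4, a cytoplasmic poly(A) binding protein, the 3 lay close together on the 5′ side of the main position and summed to 16.5, 31.5 and 30.4 against 9.19, 10.7 and 9.17. In Sptb, the β-spectrin of the red-cell membrane, they summed to 20.7, 32.7 and 22.5 against 3.34, 16.5 and 11.

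The gene lists differed in how many of their positions were in this class, against 6.65% of all positions. Cytosolic and mitochondrial chaperones had 21 of 120 (17.5%), in 12 genes that included Cct3, Cct5, Cct6a, Cct8 and Tcp1 of the TRiC ring. Of these positions 5 were in Cct5 and 3 in Hsp90aa1. Of the 21, 12 lay beyond the midpoint, and the median log2 ratio of the 21 was 0.92. Of all 120 positions of the list, 47 lay beyond the midpoint, against 16.04% of all positions inside a gene span. The part of this in the share of 17.5% was not tested. Treatments did not overlap at 4 of the 21, against 28.2% of the 600 and 5.06% of all positions. Cct3 had 14, 12 and 5 against 3, 12 and 4 reads at its highest position, with overlap. Cct8 had 11, 9 and 5 against 3, 5 and 3, without overlap, and Hsp90aa1, the inducible HSP90, 13, 11 and 4 against 4, 6 and 5, with overlap. By the edgeR fits described below, 1 of 22 chaperone genes tested fell in CDS footprints, against 0.799% of all genes, and the ratio of leader to CDS footprints rose in 15 of 23, against 33.7% of all genes. None of 26 passed in RNA, where an unadjusted p under 0.05 gave 7 higher and 0 lower and DESeq2 called 0. Over all genes an unadjusted p under 0.05 was reached in RNA by 1324 of 10643 in either direction.

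ER chaperones and degradation factors, the targets of the unfolded protein response, had none of their 35 positions in this class. Of the 35, 7 were kept only under tunicamycin, near the share of 17.7% over all positions. mRNAs of mitochondrial ribosomal proteins had 1 of 102 (Mrpl36, 6, 4 and 10 against 11, 2 and 6 reads), and the 18 kept only under tunicamycin were again near that share. Erythroid transcription factors had 1 of 50 (Gfi1b, a repressor needed for red-cell maturation, 12, 6 and 3 against 8, 4 and 5) and 15 (30%) kept only under tunicamycin. Histones had 2 of 116 and globins 0 of 6. Treatments overlapped at both Mrpl36 and Gfi1b.

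DNA replication and mitosis genes had 14 of 139 (10.1%), of which 7 were in Top2a and 12 lay beyond the midpoint. Of all 139 positions of this list, 27 lay beyond the midpoint. Tubb5, a β-tubulin, had 16, 13 and 4 against 6, 3 and 9 reads. Translation factors and other mRNAs with a terminal oligopyrimidine (TOP) tract had 16 of 172 (9.30%), among them the initiation factor subunit Eif3b with 8, 14 and 9 against 5, 9 and 3 and Eif4e, the cap-binding protein, with 17, 5 and 5 against 5, 7 and 2. Both overlapped between treatments. Cytosolic ribosomal proteins had 12 of 190 (6.32%), with Rps20 at 18, 11 and 4 against 2, 4 and 7. Ribosomal protein and histone genes have near-identical copies, and reads at Rps20, Rps27, Rpl26 or Hist1h2ak may belong to another copy.

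Genes of haem, iron and the red-cell membrane had 6 of 81 (7.41%): 3 in Sptb and 1 each in Ank1, Add2 and Aco1. Add2, the β-adducin of the membrane skeleton, had 10, 8 and 11 against 2, 6 and 8, and Ank1, which ties spectrin to the membrane, 5, 9 and 6 against 1, 4 and 5. After scaling neither gene overlapped between treatments. Aco1, the iron-sensing cytosolic aconitase, had 3, 15 and 5 against 4, 5 and 7, high in u2 alone. Splicing factors had 9 of 134 (4 of them in Prpf8), oxidative phosphorylation 8 of 144, the proteasome 4 of 73 and glycolysis 3 of 29. Psma1, a core subunit of the proteasome, had 12, 7 and 4 against 3, 2 and 4.

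mRNAs with upstream open reading frames that respond to eIF2 had 5 of 37 positions (13.5%) in Eprs, Ifrd1, Odc1 and Ppp1r15b. In Ifrd1 the 2 positions went opposite ways. The upstream one had 5, 5 and 12 untreated and 2, 5 and 4 tunicamycin reads, and the one 155 nt downstream had 1, 1 and 4 against 4, 11 and 13 and was kept only under tunicamycin. Ppp1r15b, which directs the phosphatase that removes the phosphate from eIF2, had 9, 8 and 7 against 13, 4 and 1 at the position kept only in untreated cells. Its position 1500 nt downstream had 5, 0 and 5 against 11, 5 and 8. In Odc1, ornithine decarboxylase, the position kept only in untreated cells had 13, 5 and 7 against 11, 4 and 4, and its main position 47 nt upstream 8, 3 and 14 against 12, 14 and 13. Treatments overlapped at the Ppp1r15b and Odc1 positions, and after scaling they did not at the upstream Ifrd1 position.

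The 2 positions of Eprs, the glutamyl-prolyl-tRNA synthetase, lay 48050 and 64896 nt downstream of its main one, with 7, 18 and 6 against 2, 7 and 8 and 4, 13 and 15 against 0, 8 and 10. Of the whole list, CDS footprints rose in 7 of 19 genes and fell in none by edgeR, with 1 lower at an unadjusted p under 0.05 and 0 lower by DESeq2. Over all genes 1.78% rose and 0.799% fell. ATF4 target genes, which share Eprs with the list above, had 6 of 88 positions (6.82%), in Aars, Aldh18a1, Eprs, Lars and Yars. Aars, alanyl-tRNA synthetase, had 9, 10 and 8 against 4, 5 and 3, without overlap.

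RNA and cycloheximide footprints were not used by the rule, so the host genes could be tested there. All tests used edgeR's quasi-likelihood test over all genes with Benjamini-Hochberg adjustment and an adjusted p under 0.05, tunicamycin against untreated, with log2 fold changes given ± SE. In RNA 2 of 489 host genes tested rose and 0 fell, where 0.15% of all 10643 genes rose and 0 fell. At an unadjusted p under 0.05, 72 were higher and 21 lower. In either direction this was 93 of 489, against 1324 of all 10643 genes. DESeq2 called 13 higher and 2 lower. Blocking on the replicate number, which may pair the RNA libraries, gave 33 higher and 5 lower. Here and for the measures below, shares over all genes are not given by direction at an unadjusted p, nor for DESeq2 or the block. Prpf8 RNA was 541, 462 and 511 CPM untreated and 768, 670 and 733 CPM under tunicamycin, without overlap (log2 0.53 ± 0.08, adjusted p = 0.0261, blocked 0.00138). This call was lost in 4 of 10 alternative fits, those without untreated RNA library 2 or 3 or tunicamycin RNA library 2 or 3, with adjusted p up to 0.183.

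In CDS footprints 4 of 480 host genes rose and 4 fell, where 1.78% of all genes rose and 0.799% fell (2.58% in either direction). At an unadjusted p under 0.05, 32 were higher and 56 lower. In either direction this was 88 of 480, against 1542 of all 9265 genes. DESeq2 called 6 in each direction, and a replicate block gave 22 higher and 36 lower. Ifrd1 footprints were 91.7, 91.4 and 82.3 CPM untreated and 145, 168 and 187 CPM under tunicamycin (log2 0.93 ± 0.10, adjusted p = 0.000197), while its harringtonine reads at the upstream position were 8.24 scaled reads untreated and 3.40 under tunicamycin. This call held in all 10 alternative fits. The other 3 that rose were Dph3, of diphthamide synthesis (log2 0.71 ± 0.14), Cox6c, a subunit of cytochrome c oxidase (0.80 ± 0.19), and Snapc5, of the snRNA promoter complex (0.51 ± 0.13). In each of the 3 the untreated and tunicamycin libraries did not overlap, and each call was lost in 3 or 4 of 10 alternative fits.

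Among those that fell were Cdipt, the phosphatidylinositol synthase (log2 -0.48 ± 0.10), Nup210, a nuclear pore membrane protein (-0.58 ± 0.13), and Csk, a kinase that restrains Src (-0.36 ± 0.09). These 3 calls were lost in 3 to 6 of 10 alternative fits. Without untreated footprint library 2 or tunicamycin footprint library 3, 1 host gene passed, and 21 passed without tunicamycin footprint library 1.

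Translational efficiency, CDS footprints relative to RNA, rose in 3 of 489 host genes and fell in 1, where 0.788% of all genes rose and 0.315% fell (1.1% in either direction). At an unadjusted p under 0.05, 27 were higher and 67 lower, and a replicate block gave 18 higher and 43 lower. DESeq2 called 12 higher and 13 lower. Without shares of all genes by direction, these counts, and those for genes beyond the midpoint below, do not show a trait of the host genes. In either direction the unadjusted count was 94 of 489, against 1483 of all 10154 genes. Ifrd1 rose by log2 0.90 ± 0.14 (adjusted p = 0.00956) with RNA of 180, 161 and 163 against 185, 173 and 153 CPM, and this call held in all 16 alternative fits. Dph3 (0.85 ± 0.17) and N4bp2l1 (0.77 ± 0.18) rose too, and these calls were lost in 6 and 10 of 16 fits. Among the 181 host genes with a position beyond the midpoint, edgeR called 2 higher in RNA (Prpf8 among them) and 2 lower in CDS footprints. None of their 175 tested passed in efficiency by edgeR, where an unadjusted p under 0.05 gave 3 higher and 33 lower and DESeq2 called 0 higher and 5 lower. In either direction the unadjusted count was 36 of 175, against 94 of 489 host genes and 1483 of all 10154 genes. Their median CDS log2 was close to 0.

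The ratio of leader (5′ UTR) to CDS cycloheximide footprints rose in 264 of 481 host genes and fell in none, where it rose in 33.7% and fell in 0.065% of all genes tested (33.8% in either direction). No host gene was lower at an unadjusted p under 0.05, and DESeq2 called 146 higher and 0 lower. Without tunicamycin footprint library 3 edgeR called 137. Among genes that had harringtonine positions but none in this class the ratio rose in 49.6%, with a median log2 of 0.91 against 1.04 in the host genes, and this difference was not tested. Host genes had more RNA (median 131 against 85.5 CPM) and more CDS footprints (126 against 71.2 CPM) than those genes.

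Hspa8, the constitutive HSP70, had 33, 21 and 28 leader reads untreated and 109, 114 and 213 under tunicamycin beside 685, 781 and 841 and then 426, 536 and 572 CDS reads (log2 of the ratio 2.95 ± 0.31, adjusted p = 1.05e-09). Its position kept only in untreated cells lay late in the gene, 3388 nt downstream of the main one, with 3, 9 and 11 against 1, 4 and 7 reads. The Top2a ratio rose by log2 2.28 ± 0.30 (47, 34 and 42 leader reads untreated, 134, 117 and 239 under tunicamycin). Dek, a chromatin protein, rose by 2.55 ± 0.36, Chchd10, a mitochondrial protein, by 2.67 ± 0.40, and Tubb5 by 2.11 ± 0.27. Of the 22 genes with 3 or more positions of this class that could be tested, 18 rose, with a median of 1.14. The ratio rose in 33.7% of all genes and in 49.6% of genes with positions but none in this class. Read depth was not matched between these sets, and the difference was not tested. In Kit the ratio rose by 2.14 ± 0.42 on 6, 9 and 8 leader reads untreated and 17, 21 and 29 under tunicamycin. In Ifrd1 the log2 change of the ratio was -0.25 ± 0.27 (adjusted p = 0.477), with 133, 119 and 100 leader reads untreated and 142, 121 and 150 under tunicamycin.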

How the data were processed

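The harringtonine files hold whole-number read counts per position on each strand, and the footprint and RNA table holds raw counts per gene for leader, CDS and RNA, all as deposited by the authors. STAR, HTSeq and edgeR, with mm10 and GRCm38, are named per the submitters' processing notes. For versions and the position caller, the sources used here give nothing. Every deposited position has at least 20 reads summed over 1 treatment, so positions under 20 in both are not seen, and totals over kept positions are not sequencing depth.

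The positions, lists and named genes were chosen with earlier results of these data known. The names printed are the 15 positions with the highest untreated sum, the 10 largest ratios among those with at least 30 untreated reads, genes with 3 or more positions, up to 4 positions per list, host genes passing a test (up to 8 per direction and measure), and examples at the threshold. Genes used to show sequences, positions in genes under 1 CPM and the neighbour in Yars were chosen after their values were seen. Some results that these rules name are not reported here. Reads were scaled to the mean total of 541589. Gene counts went into edgeR 4.0.16 (R 4.3.3, TMM, filterByExpr with minimum count 10 and total 15, glmQLFTest, Benjamini-Hochberg), with DESeq2 1.42.0 as an alternative, and the fits were tested on simulated data. Efficiency and leader ratio are interaction terms, the former over 12 libraries. TMM sets the typical gene near 0, so a change common to all mRNAs is not seen.

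RNA libraries with the same number deviated together (correlations 0.416, 0.313 and 0.192), so the numbers may pair them. Those with different numbers ran from -0.36 to 0.19, and the highest came close to the lowest of the same number. The main fits did not block on the number. For CDS footprints the correlations were 0.348, 0.094 and 0.276 with the same number. With different numbers they ran from -0.293 to 0.024, so the numbers may pair these libraries too. The numbers of harringtonine columns were not matched to other libraries. No label ties the 3 samples of a group to separate cultures or animals, so p-values measure only their spread, which may be technical.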

Additional observations from a re-analysis of the deposited data

How the results depend on the processing

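The count of positions kept only in untreated cells, 600, rested on the rule. It was 909 with sums scaled to library totals, 927 with TMM, 65 with an untreated sum of at least 30, and 392 to 848 when 1 library was left out. The share beyond the midpoint of the gene, 40.4%, was 63.1% at an untreated sum of at least 30 and 25.7% to 48.6% without 1 library, lowest without t1 (chosen after seeing the data). For host genes called in RNA (2), no filter on low counts gave 12, DESeq2 15, the replicate block 38, and leaving out 1 library 0 to 3. For CDS footprints (8), no filter gave 34, the replicate block 58, leaving out 1 library 1 to 21, and genes with a position beyond the midpoint alone 2. For translational efficiency (4), no filter gave 23, DESeq2 25, the replicate block 61, leaving out 1 library 1 to 16, and genes with a position beyond the midpoint 0. For the leader ratio (264), DESeq2 gave 146, leaving out 1 library 137 to 238, and genes with a position beyond the midpoint 105. These last sets hold fewer genes. The cause of the other shifts was not tested. CDS footprint libraries may also be paired by number, although 1 of their 3 same-number correlations was under 0.1. None of the calls named for single genes changed direction under the alternatives run. Positions hold 20 to 30 reads as a rule, which limits what one position shows.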
